A study of Homo sapiens with 12 samples.

Results

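The genes of the aminoacyl-tRNA synthetases were followed through 4 groups of MiaPaCa-2 cells, an established human pancreatic cancer cell line. The group comprised 35 gene symbols, 19 for enzymes of the cytosol and 16 for enzymes of mitochondria, matched by symbol to the 70116 gene identifiers of the count table. The cells had been transfected with small interfering RNAs (siRNAs), which lead to the breakdown of the transcript they match. The groups were a control siRNA (siControl) and siRNAs against SLC25A1, the mitochondrial citrate carrier (siSLC25A1), ACLY, the cytosolic enzyme that makes acetyl-CoA from citrate (siACLY), and ACO1, the cytosolic aconitase that turns citrate into isocitrate and also acts as an iron-responsive RNA-binding protein (siACO1). Each group had 3 libraries of poly(A) RNA, and all 12 came from this 1 cell line. The number of different siRNAs per target, the medium and the hours between transfection and harvest are not given in the sources used here, so an effect of a target's loss and an off-target effect of its siRNA cannot be told apart. Nothing in the labels says that replicates were separate cultures, so the p-values measure the spread between these libraries, which may be technical.

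An aminoacyl-tRNA synthetase joins an amino acid to its transfer RNA (tRNA), the step that gives the genetic code its meaning, and cells keep separate enzymes for cytosolic and mitochondrial protein synthesis, all encoded in the nucleus. Several cytosolic enzymes sit in a multisynthetase complex held together by the scaffold proteins AIMP1, AIMP2 and EEF1E1, and the genes GARS1 and KARS1 each give both the cytosolic and the mitochondrial enzyme for their amino acid. When amino acids run short, uncharged tRNA activates the kinase GCN2, phosphorylation of eIF2alpha slows translation in general while that of the transcription factor ATF4 increases, and ATF4 induces amino acid transporters, biosynthetic enzymes and many cytosolic synthetases. The list used here does not cover the enzyme of every amino acid.

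Library totals ran from 24159424 to 43792811 counts. Each target was low in its own group: SLC25A1 was at 134 ± 0.691 CPM (read counts relative to the library total) in siControl and 11.7 ± 1.18 in siSLC25A1, ACLY at 499 ± 7.55 and 36.1 ± 0.504 in siACLY, and ACO1 at 45 ± 1.57 and 1.68 ± 0.331 in siACO1 (mean ± SD, n = 3). Levels are CPM after TMM scaling (a trimmed mean of log ratios between libraries), so they are relative to the rest of a library's RNA, and an overall change in RNA per cell cannot be seen. The third siACO1 library stood apart from the other two, with a chi-square per degree of freedom over genes of 11.8 and 12.5 against them, where other replicate pairs were between 2.31 and 5.85. Of the markers fixed for the line, KRT8, KRT18, KRT19 and VIM were expressed and EPCAM had 0 to 2 counts a library. A gene was called higher or lower at an adjusted p under 0.05 in edgeR's quasi-likelihood test, with Benjamini-Hochberg adjustment over 16197 genes.

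Of the 35 synthetase genes, 31 passed the filter on low counts, 17 cytosolic and 14 mitochondrial. VARS1, SARS2 and VARS2, the enzymes for valine and for mitochondrial serine and valine, were listed at 0 in all 12 libraries, and IARS1, the cytosolic isoleucyl enzyme, had 0 to 2 counts. Genes that every cell uses were also at or near 0 in this table, among them the elongation factor subunit EEF1G at 0 counts and EEF1B2 at 0 to 1, so these 4 values give no measure of the enzymes' expression. Per kilobase of exon, the cytosolic genes had a median level of 57.3 CPM in siControl and the mitochondrial genes 10.8. GARS1, for glycine, led the cytosolic group at 170 ± 2.04 CPM per kilobase, followed by AARS1, for alanine, at 156 ± 6.78 and NARS1, for asparagine, at 115 ± 1.99. The lower end held HARS1, for histidine, at 17.6 ± 0.283 and CARS1, for cysteine, at 1.24 ± 0.0376, which was below every mitochondrial gene tested. This ranking depends on the merged exon length, which was 10037 bases for CARS1 and 2347 for PARS2, the mitochondrial prolyl enzyme. Before division by length, CARS1 was at 12.5 ± 0.377 CPM in siControl and PARS2 at 12.8 ± 0.835. Whether the way reads were counted lowered the CARS1 value was not tested. Among the mitochondrial genes the isoleucyl enzyme IARS2 stood at 81.4 ± 1.18 CPM per kilobase, above YARS2, for tyrosine, at 35.4 ± 0.777, and WARS2, for tryptophan, was lowest at 3.84 ± 0.156.

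**Figure D1:**
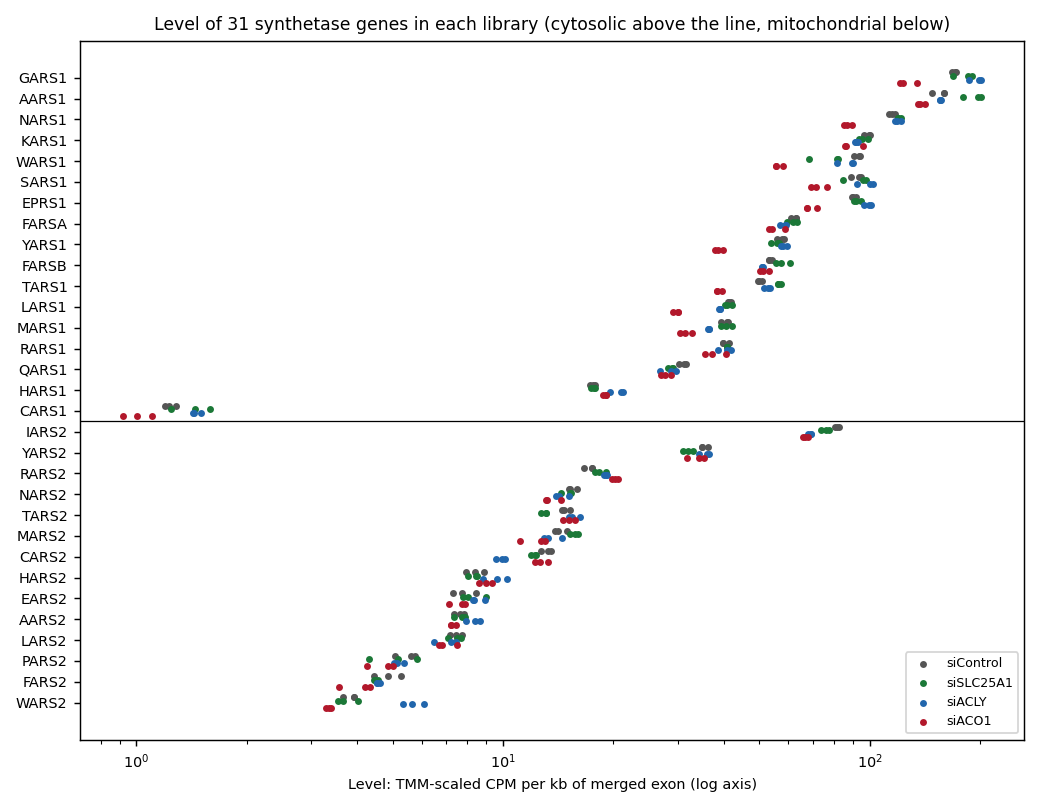
Level of each of the 31 tested synthetase genes in each of the 12 libraries, as TMM-scaled CPM per kilobase of merged exon on a log axis. Each point is 1 library, coloured by group; cytosolic genes stand above the line and mitochondrial genes below it, and the siControl medians are 57.3 and 10.8 CPM per kilobase, with CARS1 far to the left at 1.24.

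Amino acid response promoters carry an element whose core can be written TGATGNAA, a composite site bound by ATF4 with a C/EBP partner. It was searched for on both strands of the RefSeq promoter windows of GRCh38.p14, which reach from 250 bases before to 50 after a gene's start. Its letters were in 7 of 16 cytosolic synthetase genes with a window (43.8%), in 1 of 14 mitochondrial ones (7.14%) and in 1217 of 27305 genes of the table (4.46%). LARS1, VARS1, YARS1, AARS2 and VARS2 had no window in the table. The stretches around the matches are shown because these genes are among those described below, with the core in capitals and each sequence written 5′ to 3′ on the gene's own strand, so that a core on the opposite strand appears as its reverse complement.
TARS1, chr5:33440956-33440985, plus strand: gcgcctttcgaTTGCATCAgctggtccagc
GARS1, chr7:30594834-30594863, plus strand: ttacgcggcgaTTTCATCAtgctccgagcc
IARS1, chr9:92293692-92293721, minus strand: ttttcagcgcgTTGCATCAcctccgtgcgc
CARS1, chr11:3057407-3057436, minus strand: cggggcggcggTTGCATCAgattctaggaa
MARS1, chr12:57488053-57488082, plus strand: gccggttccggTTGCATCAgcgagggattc
AARS1, chr16:70289675-70289704, minus strand: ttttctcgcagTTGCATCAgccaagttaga
NARS1, chr18:57621804-57621833, minus strand: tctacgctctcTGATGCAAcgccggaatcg
YARS2, chr12:32756076-32756105, minus strand: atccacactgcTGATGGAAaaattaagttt
ASNS, chr7:97872458-97872487, minus strand: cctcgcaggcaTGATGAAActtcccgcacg

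The last sequence is from ASNS, asparagine synthetase, the textbook gene of this element, given for comparison. In 6 of the 7 cytosolic genes the core read TGATGCAA on one of the strands, and GARS1 shared TGATGAAA with ASNS. The core lay across or within 40 bases of the start in TARS1, GARS1, IARS1, CARS1, MARS1 and NARS1, whereas it lay farther upstream in AARS1, at positions -187 to -180, and in YARS2, at -197 to -190 from the start. A match describes the letters only, and no binding was measured.

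Knockdown of ACO1 came with lower transcript levels of most cytosolic synthetases. Of the 17 tested, 14 fell and HARS1 rose, a median log2 fold change of -0.35 against 0.006 over all genes tested, while 37.1% of all genes were called in this comparison (17.8% higher and 19.3% lower). The mitochondrial enzymes had 4 genes lower and 1 higher of 14, with a median of -0.08. FARSB, the beta subunit of the phenylalanyl enzyme, and RARS1, for arginine, were the cytosolic genes not called (log2 fold changes of -0.05 and -0.09). RARS1 was called lower without the third siACO1 library, at -0.15 (adjusted p = 0.00298). Of all 31 synthetases, 20 had the 3 siACO1 libraries below the 3 controls and 2 above them, which held for 23.4% and 22.9% of all genes, and the 14 cytosolic genes that fell were among the 20.

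WARS1, the tryptophanyl enzyme, which interferon also induces (chr14:100333788-100376805 on GRCh38), had 575, 596 and 599 CPM in siControl and 353, 352 and 368 CPM in siACO1. The siACO1 libraries lay far below the controls, and WARS1 fell by 0.72 ± 0.06 on the log2 scale (± SE, adjusted p = 9.21e-10). YARS1, for tyrosine (chr1:32775237-32818153), had 480, 459 and 472 CPM in siControl and 316, 310 and 327 CPM in siACO1. All 3 knockdown values were below the lowest control by more than the spread of either group, with a log2 fold change of -0.57 ± 0.04 (adjusted p = 1.75e-12). LARS1, the leucyl enzyme and a leucine sensor for mTORC1 (chr5:146113038-146182660), had 333, 340 and 335 CPM in siControl and 244, 243 and 236 CPM in siACO1. Its groups were also far apart, at -0.48 ± 0.04 on the log2 scale (adjusted p = 2.29e-11). GARS1 (chr7:30594681-30634033) had 712, 696 and 707 CPM in siControl and 512, 503 and 558 CPM in siACO1. Here the third siACO1 library was the highest of its group and still below every control, and the log2 fold change was -0.43 ± 0.05 (adjusted p = 1.27e-08).

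NARS1, EPRS1, TARS1, MARS1, SARS1 and CARS1, the enzymes for asparagine, for glutamate and proline, for threonine, methionine, serine and cysteine, fell by 0.40, 0.39, 0.37, 0.36, 0.35 and 0.30 on the log2 scale. AARS1 and FARSA, the alpha subunit of the phenylalanyl enzyme, fell by 0.18 each, QARS1, for glutamine, by 0.16 and KARS1, for lysine, by 0.15. CARS1 was the least abundant of these, at 12.5 ± 0.377 CPM in siControl and 10.1 ± 0.906 in siACO1 (adjusted p = 0.0116), and its adjusted p was 0.0572 without the third siACO1 library. HARS1 had 141, 136 and 139 CPM in siControl and 148, 151 and 151 CPM in siACO1, a rise of 0.11 ± 0.04 on the log2 scale (adjusted p = 0.0268). Its siACO1 values lay just above the controls, and 4 of 19 other settings of the fit or sets of libraries lost the call. MARS1 shares 5.05% of its exon bases with DDIT3 and HARS1 5.56% with HARS2, so reads there could not be told apart if counting ignored the strand, which is not given in the sources used here.

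**Figure D2:**
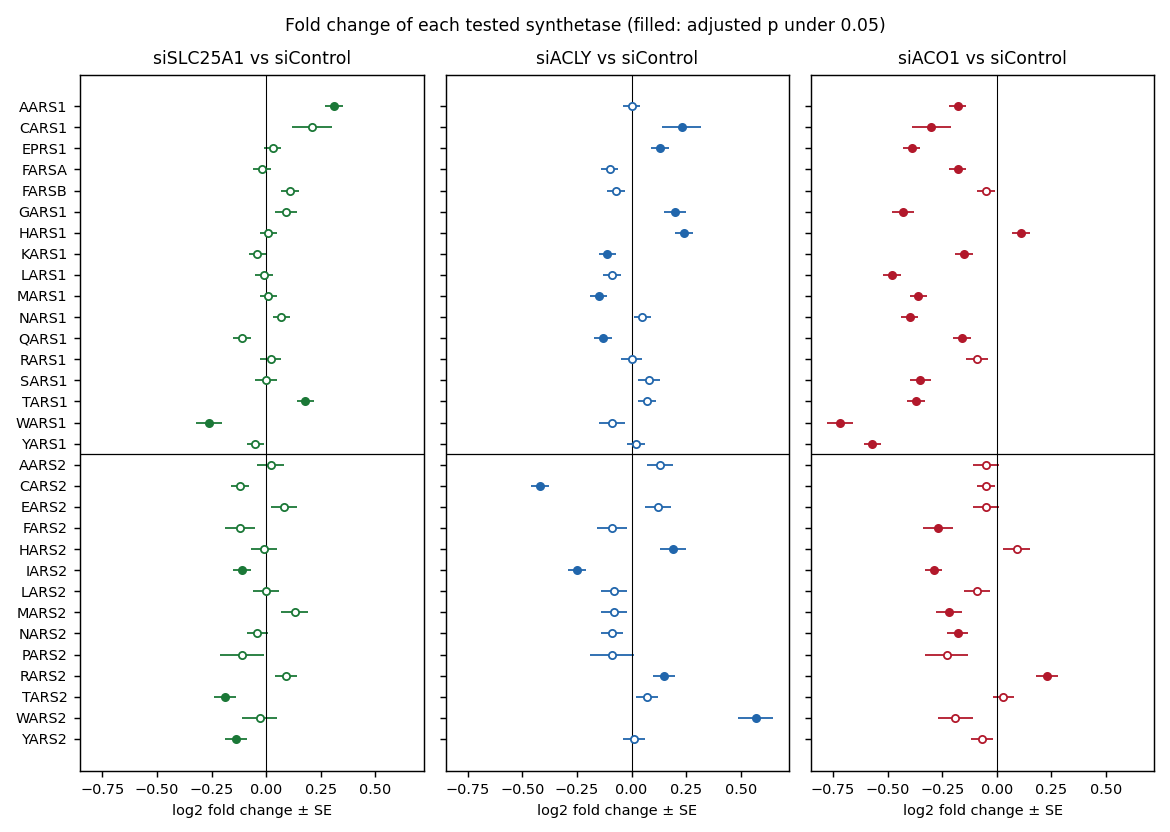
Log2 fold change (x axis, bars ± SE) of each of the 31 tested synthetase genes (rows) in each knockdown against siControl (panels), with filled points at an adjusted p under 0.05 and the line dividing cytosolic genes from mitochondrial ones. In the siACO1 panel 14 of 17 cytosolic points are filled to the left of 0, the farthest at -0.72 for WARS1.

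The cytosolic genes did not fall to the same extent in siACO1. For the counts that follow, 19.3% of all genes were called lower and 17.8% higher, with a median log2 fold change of 0.006. The list of 13 reported ATF4 targets was drawn from general knowledge of the pathway, with earlier results of these data known. Of these, 11 were tested and all 11 fell, with a median log2 fold change of -0.39 and a range of -0.72 to -0.18. Because of how the list was made, neither this fall nor its contrast with the other cytosolic genes is independent evidence. Of the 6 other cytosolic genes, FARSA, KARS1 and QARS1 fell, HARS1 rose and FARSB and RARS1 were not called, with a median of -0.12. The 6 tested enzymes of the multisynthetase complex (EPRS1, KARS1, LARS1, MARS1, QARS1 and RARS1) included 5 that fell, with a median of -0.26. Setting aside GARS1 and KARS1, which also serve mitochondria, left 12 lower and 1 higher of 15 and a median of -0.35. The 6 tested cytosolic genes with the promoter core shown above (AARS1, CARS1, GARS1, MARS1, NARS1 and TARS1) all fell, with log2 fold changes between -0.43 and -0.18 and a median of -0.36. Of the 9 with a window and no match, 6 fell and 1 rose, with a median of -0.16. Among those 6 were WARS1, SARS1 and EPRS1, at -0.72, -0.35 and -0.39. WARS1, SARS1, EPRS1 and the genes with a match are all on the list of reported ATF4 targets, so the split by match overlaps the split by list.

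Among the mitochondrial enzymes in siACO1, IARS2 (chr1:220094102-220148041) had 334, 343 and 340 CPM in siControl and 274, 282 and 278 CPM after the knockdown. The groups were well separated, at -0.29 ± 0.04 on the log2 scale (adjusted p = 4.2e-07). FARS2, for phenylalanine, had 23.5, 25.5 and 21.5 CPM in siControl and 17.3, 20.3 and 21 CPM in siACO1. The highest siACO1 value lay close to the lowest control, the log2 fold change was -0.27 ± 0.07 (adjusted p = 0.00549), and the adjusted p was at most 0.0586 when a library was left out. RARS2, the mitochondrial arginyl enzyme, went the other way, from 44.4, 44.3 and 42.3 CPM to 51.2, 50.3 and 52.3 CPM, a rise of 0.23 ± 0.05 (adjusted p = 0.000489). MARS2, for methionine, and NARS2, for asparagine, fell by 0.22 and 0.18 on the log2 scale, and PARS2, for proline, had a log2 fold change of -0.23 that was not called (adjusted p = 0.0695).

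Other values moved with the siACO1 group. The summed level of the line's markers (KRT8, KRT18, KRT19, VIM and EPCAM) was between 7230 and 7270 CPM in siControl and between 5540 and 6020 CPM in siACO1, where KRT8, KRT18 and KRT19 were lower by 0.83, 0.78 and 0.76 on the log2 scale. VIM, which mesenchymal cells also express, had 3560 ± 80.7 CPM in siControl and 3620 ± 196 in siACO1 and was not called. Of 9 markers of other cell types, COL1A2 was the one expressed, at 885 ± 10.2 CPM in siControl and 1580 ± 26.4 in siACO1, and the list's sum was 875 to 895 CPM and 1550 to 1590 CPM. PTPRC, CD3E, INS and PRSS1 were at 0 and the other 4 had at most 9 counts a library. The part of these changes in the fall of the synthetases was not tested. Markers also moved in the other knockdowns. In siSLC25A1 KRT19 was higher by 0.45, KRT8, KRT18 and COL1A2 were lower by 0.18, 0.20 and 0.13, and VIM was not called. In siACLY KRT19 and VIM were higher by 0.67 and 0.36, and KRT8, KRT18 and COL1A2 were not called. The sum of the line's markers was 6950 to 7350 CPM in siSLC25A1 and 8090 to 8740 CPM in siACLY.

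**Figure D3:**
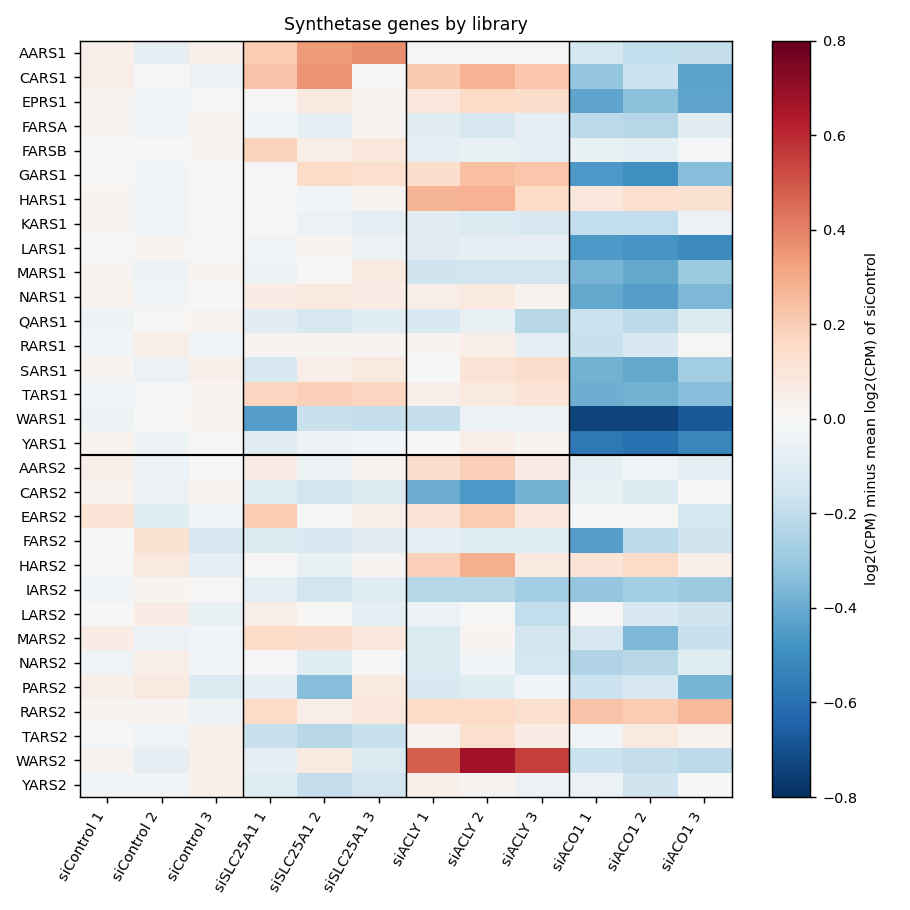
Log2 level of each tested synthetase gene (rows) in each of the 12 libraries (columns) minus the mean of the 3 siControl libraries, coloured from -0.8 to 0.8. The siACO1 columns are blue for most cytosolic rows, WARS1 the deepest, while in the siACLY columns WARS2 is red and CARS2 blue.

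After knockdown of SLC25A1 the share of synthetase genes called was close to that of all genes. Of the 31 tested, 2 rose and 4 fell, against 19.6% of all genes called in this comparison (10.3% higher and 9.27% lower), and the median log2 fold change was 0.01 for the cytosolic and -0.04 for the mitochondrial genes. The 3 libraries were above the controls in 6 synthetases and below in 6, against 18.4% and 18.7% of all genes. AARS1 (chr16:70252295-70289543) had 718, 666 and 719 CPM in siControl and 806, 889 and 907 CPM in siSLC25A1. Every knockdown library was above every control, and AARS1 rose by 0.31 ± 0.04 on the log2 scale (adjusted p = 4.28e-06). TARS1, the threonyl enzyme (chr5:33440696-33469539), had 284, 286 and 291 CPM in siControl and 322, 328 and 322 CPM in siSLC25A1, with tight groups that did not overlap. It rose by 0.18 ± 0.04 (adjusted p = 0.000813).

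WARS1 fell here too, to 434, 522 and 518 CPM, a log2 fold change of -0.26 ± 0.06 against siControl (adjusted p = 0.00134). The first siSLC25A1 library was well below the other two, and all 3 were below the controls. TARS2, the mitochondrial threonyl enzyme, had 59.8, 59 and 61.8 CPM in siControl and 53.2, 51.7 and 53.2 CPM in siSLC25A1. It fell by 0.19 ± 0.05 (adjusted p = 0.00507), so the threonyl enzymes of the cytosol and of mitochondria were called in opposite directions in this knockdown. YARS2 fell by 0.14 ± 0.05 and IARS2 by 0.11 ± 0.04, with adjusted p-values of 0.0348 and 0.0438 that rose above the threshold in 5 and 11 of the 19 other settings. The count of 6 called genes was 10 when the third siACO1 library was left out of the shared estimate of spread and 4 without the first siControl library.

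After knockdown of ACLY the share was again close to the background, with 12 of the 31 genes called, 7 higher and 5 lower, against 36.7% of all genes (18.4% higher and 18.3% lower). The siACLY libraries lay above the controls in 9 synthetases and below in 9, against 25.5% and 25% of all genes. Cytosolic genes had 4 higher and 3 lower of 17 with a median log2 fold change of 0.00, and mitochondrial genes 3 higher and 2 lower of 14 with a median of -0.04. The split depended on scaling, since with library totals in place of TMM 12 genes were called higher and 3 lower, while over all genes the share of calls that were higher went from 50.1% to 61%. The largest changes were in mitochondrial enzymes. WARS2 (chr1:119031216-119140671) had 15.1, 14.1 and 15.1 CPM in siControl and 20.6, 23.5 and 21.7 CPM in siACLY. The siACLY libraries stood above all others, and WARS2 rose by 0.57 ± 0.08 on the log2 scale, or 48.1% (adjusted p = 6.37e-07).

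CARS2, the mitochondrial cysteinyl enzyme, which also makes cysteine persulfides (chr13:110641412-110713603), had 141, 133 and 139 CPM in siControl and 104, 99.8 and 106 CPM in siACLY. The groups were far apart, and CARS2 fell by 0.42 ± 0.04, or by 25.1% (adjusted p = 9.4e-09). IARS2 fell as well, to 288, 288 and 282 CPM, by 0.25 ± 0.04 on the log2 scale (adjusted p = 5.61e-06). Its log2 fold changes in siSLC25A1, siACLY and siACO1, which share their controls, were -0.11, -0.25 and -0.29, all called.

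Among the cytosolic genes HARS1 (chr5:140673904-140691862) had 166, 168 and 155 CPM in siACLY against 141, 136 and 139 CPM in siControl, a rise of 0.24 ± 0.04 (adjusted p = 3.1e-05). HARS2, which lies head to head with it and shares exon bases, rose by 0.19 ± 0.06 (adjusted p = 0.0193) with libraries that overlapped the controls. The HARS2 call was lost in 4 of the 19 other settings, with adjusted p up to 0.154. CARS1 rose from 12.9, 12.4 and 12.1 CPM to 14.4, 15.1 and 14.5 CPM, by 0.23 ± 0.09 (adjusted p = 0.0401), so that the cysteinyl pair was called in opposite directions. Its libraries did not overlap the controls, but 8 of the 19 other settings lost the CARS1 call, with adjusted p up to 0.127. GARS1 rose to 775, 832 and 822 CPM (0.20 ± 0.05, adjusted p = 0.000897), above all controls. MARS1 (chr12:57475445-57517569) fell from 288, 277 and 287 CPM to 254, 256 and 257 CPM (-0.15 ± 0.04, adjusted p = 0.00331), again with no overlap. Without the third siControl or the second siACLY library, 7 synthetases were called in place of 12.

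Next, knockdowns were set against one another. Between siSLC25A1 and siACO1, 21 of the 31 synthetases were called, 18 higher in siSLC25A1 and 3 lower, against 42.1% of all genes (21.8% higher and 20.3% lower). The cytosolic genes had 15 higher and 1 lower of 17, with a median log2 difference of 0.42, and the mitochondrial genes 3 higher and 2 lower of 14 with a median of 0.10. With library totals 15 of the 31 were higher and 5 lower. TARS1, GARS1 and YARS1 had the largest differences, at 0.55 ± 0.04, 0.52 ± 0.05 and 0.52 ± 0.04.

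Between siACLY and siACO1, 15 synthetases were higher in siACLY and 1 lower, against 42.1% of all genes called (21.4% higher and 20.7% lower). Of the cytosolic genes 12 of 17 were higher and 0 lower, with a median of 0.39. WARS2 differed most, from 20.6, 23.5 and 21.7 CPM in siACLY to 13.1, 12.9 and 12.7 CPM in siACO1, a difference of 0.76 ± 0.08 (adjusted p = 3.35e-09). The siACO1 value against siControl was -0.19 ± 0.08 and not called (adjusted p = 0.0566). GARS1 and WARS1 followed at 0.63 ± 0.05 and 0.63 ± 0.06. Lower in siACLY was CARS2, at -0.36 ± 0.04 (adjusted p = 6.39e-08).

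Between siSLC25A1 and siACLY, 7 synthetases were higher in siSLC25A1 and 6 lower, against 33.8% of all genes (17.5% higher and 16.3% lower), and with library totals 6 were higher and 10 lower. The 3 largest differences were WARS2 at -0.60 ± 0.08, AARS1 at 0.31 ± 0.04 and CARS2 at 0.30 ± 0.04. Of the 31, 11 cytosolic and 0 mitochondrial genes were called lower in siACO1 than in each of the other 3 groups, in comparisons that share the siACO1 libraries, as were 9.49% of all genes tested. The 11 were AARS1, CARS1, EPRS1, GARS1, LARS1, MARS1, NARS1, SARS1, TARS1, WARS1 and YARS1. The same 11 are the tested genes on the list of reported ATF4 targets. That list was made with earlier results of these data known, so the match is no independent evidence. FARSB, RARS1, AARS2, EARS2, LARS2 and PARS2 were called in none of the 3 comparisons with siControl.

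The contrast between compartments can be read as a ratio within each library. The summed CPM of the 17 cytosolic genes divided by that of the 14 mitochondrial genes was 6.13, 6.02 and 6.19 in siControl and 5.23, 5.19 and 5.36 in siACO1. In siSLC25A1 it was 6.19, 6.88 and 6.7, and in siACLY 6.57, 6.67 and 6.88. The siACO1 ratios were thus below those of the other 9 libraries, and most of the others were above the controls, though 1 siSLC25A1 library equalled the highest control to the digits given. The sums are dominated by the abundant genes, and the difference between compartments itself was not tested.

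For 14 pairs of genes that serve the same amino acid in the 2 compartments (EPRS1 and FARS2 each stand in 2 pairs), the cytosolic log2 change was the lower one in 11 pairs in siACO1, with a median difference of -0.23. In siSLC25A1 it was lower in 5 and higher in 9, with a median difference of 0.10, and in siACLY lower in 6 and higher in 7, with a median of 0.01. The tryptophan ratio, WARS1 over WARS2, was 38.1, 42.3 and 39.7 in siControl, 30.8, 33.7 and 37.8 in siSLC25A1, 25.1, 24.2 and 26.5 in siACLY, and 26.9, 27.3 and 29 in siACO1. All 3 knockdowns were below the controls, siSLC25A1 and siACO1 with WARS1 called lower and siACLY with WARS2 called higher. The threonine ratio, TARS1 over TARS2, was 4.75, 4.85 and 4.71 in siControl, 6.05, 6.34 and 6.05 in siSLC25A1, and 3.7, 3.45 and 3.7 in siACO1. It was therefore above the controls in siSLC25A1 and below them in siACO1. In siACLY it overlapped them, at 4.79, 4.59 and 4.88.

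**Figure D4:**
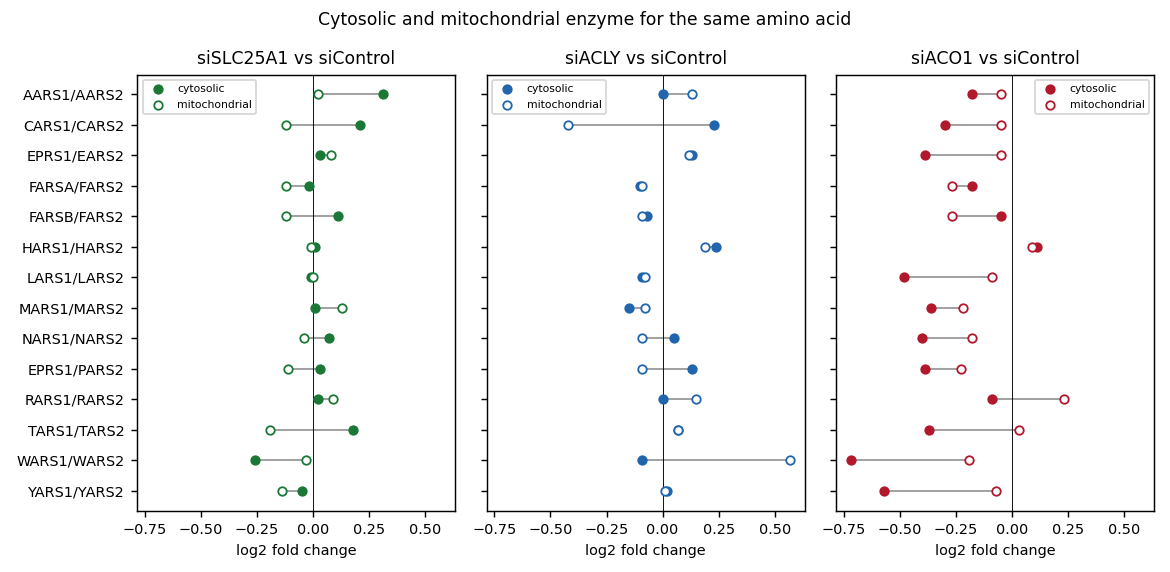
Log2 fold change against siControl (x axis) of the cytosolic (filled) and mitochondrial (open) enzyme for the same amino acid, joined by a line, in 14 pairs (rows) and 3 knockdowns (panels). In siACO1 the filled point lies to the left in 11 pairs, and in siACLY the widest gaps are the tryptophan pair and the cysteine pair.

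The other genes of the pathway were read from lists compiled in the same way. ATF4 itself had 357, 327 and 349 CPM in siControl, 427, 460 and 439 CPM in siSLC25A1, 372, 395 and 401 CPM in siACLY and 245, 237 and 270 CPM in siACO1. It rose by 0.36 ± 0.05 and 0.18 ± 0.05 in the first 2 knockdowns and fell by 0.46 ± 0.05 in siACO1, with no overlap with the controls in any of them (adjusted p = 1.35e-06, 0.0035 and 7.76e-09). Of the 28 tested genes of its wider programme, 16 were higher and 0 lower in siSLC25A1 (median 0.20), 21 higher and 4 lower in siACLY (median 0.34), and 1 higher and 22 lower in siACO1 (median -0.43). Of all genes, 10.3% were called higher and 9.27% lower in siSLC25A1, 18.4% and 18.3% in siACLY, and 17.8% and 19.3% in siACO1. In siSLC25A1 and siACLY, the counts among cytosolic synthetases were 2 higher and 1 lower, and 4 higher and 3 lower, of 17, with medians of 0.01 and 0.00.

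Single genes of that programme went separate ways. ASNS had log2 fold changes of 0.01 ± 0.11 in siSLC25A1 (not called), 0.71 ± 0.10 in siACLY and -0.76 ± 0.11 in siACO1. TRIB3, a pseudokinase that feeds back on ATF4, was at 0.62, 0.89 and -0.29, all called, and DDIT3, which encodes the transcription factor CHOP, at 0.63 and 0.83, both called, and 0.14 in siACO1, not called (adjusted p = 0.268). ASNS shares 44.6% of its exon bases with AC079781.5 on the same strand, and DDIT3 27.2% with MARS1 on the opposite strand. How reads there were counted is not given in the sources used here. The serine synthesis enzymes PHGDH and PSAT1 fell by 1.05 and 0.96 in siACO1, and had log2 fold changes of -0.16 and -0.06 in siSLC25A1 and -0.08 and -0.10 in siACLY, none of them called. NUPR1 rose by 1.76 ± 0.25 in siACLY from a low level, 0.727 ± 0.201 CPM in siControl against 2.45 ± 0.414. It had 16 to 92 counts a library over all 4 groups.

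**Figure D5:**
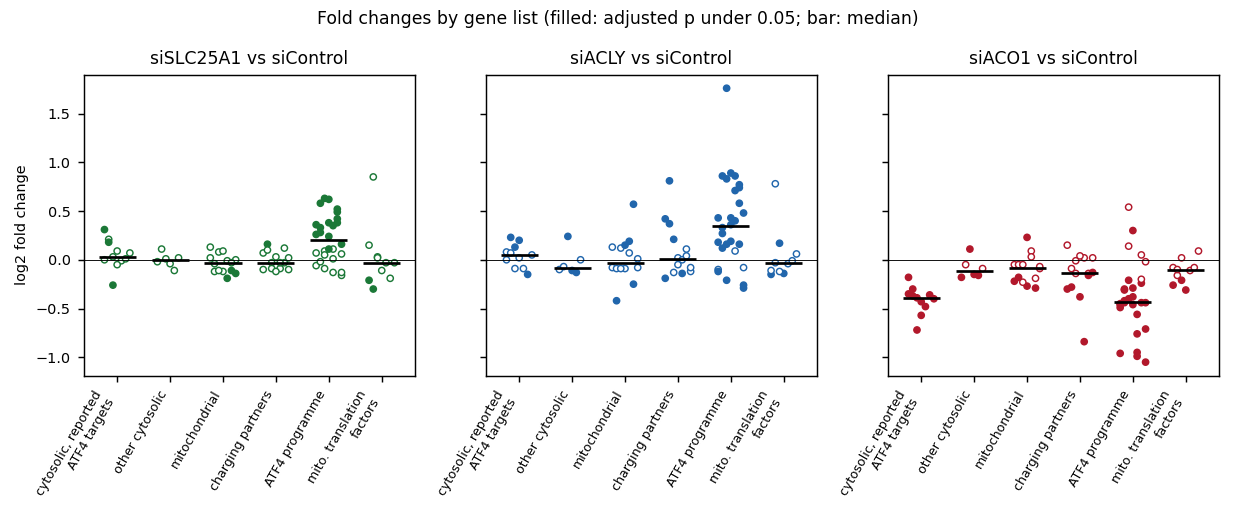
Log2 fold change against siControl (y axis) of each tested gene of 6 lists (x axis) in 3 knockdowns (panels), with filled points at an adjusted p under 0.05 and a bar at each list's median. The ATF4 programme has medians of 0.20, 0.34 and -0.43, and the cytosolic ATF4 targets 0.03, 0.05 and -0.39. The lists were made with earlier results of these data known.

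Of 14 proteins that work beside the synthetases, 1 rose in siSLC25A1, 4 rose and 2 fell in siACLY, and 6 fell and 0 rose in siACO1, with medians of -0.03, 0.01 and -0.13. The share called was 7.14%, 42.9% and 42.9%, against 19.6%, 36.7% and 37.1% of all genes, so the siACLY share was near the background. In siACO1 all 6 calls were lower, where 19.3% of all genes were called lower and 17.8% higher. XPOT, the exporter of tRNA from the nucleus, had 458, 449 and 455 CPM in siControl and 250, 259 and 251 CPM in siACO1. It fell by 0.84 ± 0.04 (adjusted p = 1.04e-15), a larger estimate than that of any synthetase tested in that comparison. QRSL1, a subunit of the mitochondrial amidotransferase that makes glutaminyl-tRNA, fell by 0.38 ± 0.06 and the complex scaffold AIMP1 by 0.30 ± 0.05 in siACO1. The scaffolds parted in siACLY, where AIMP1 fell by 0.19 ± 0.05 and AIMP2 rose by 0.37 ± 0.05. AIMP2 shares 28.9% of its exon bases with EIF2AK1 on the opposite strand, and the strand setting of the counts is not given. PSTK and SEPSECS, the successive enzymes that turn seryl-tRNA into selenocysteinyl-tRNA, both rose in siACLY. PSTK went from 7.62, 7.27 and 8.54 CPM to 13.7, 13.2 and 14 CPM (0.81 ± 0.09, adjusted p = 8.23e-08) and SEPSECS from 11.5, 13.4 and 10.9 CPM to 15.9, 16.6 and 15.5 CPM (0.42 ± 0.08, adjusted p = 0.000218), without overlap.

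Genes acting on eIF2alpha and in elongation were counted in the same way. Of 8 kinases, phosphatase subunits and partners, 2 rose in siSLC25A1, 2 rose and 1 fell in siACLY, and 4 fell in siACO1. These were 25%, 37.5% and 50% called, against 19.6%, 36.7% and 37.1% of all genes. In siACO1, 19.3% of all genes were called lower. EIF2AK4, which encodes GCN2, had log2 fold changes of -0.03, 0.11 and 0.02 in the 3 knockdowns, called in siACLY (adjusted p = 0.0406). The call was lost in 13 of 19 other settings, with adjusted p up to 0.165. Its activator GCN1 fell by 0.17 ± 0.06 in siACO1 (adjusted p = 0.0214), which rested on the third siACO1 library, since without it the log2 fold change was -0.08 (adjusted p = 0.0836). PPP1R15A, the stress-induced phosphatase subunit, rose by 0.52 in siSLC25A1 and 0.77 in siACLY. Of 6 cytosolic elongation genes 2 were tested, and both fell in siSLC25A1 and in siACO1, EEF2 by 0.20 and 0.36 and EEF1A1 by 0.15 and 0.17. Without the second siControl library the EEF1A1 call in siSLC25A1 was lost (adjusted p = 0.0734). Among 10 factors of mitochondrial translation, 2 fell in siSLC25A1, 1 rose and 2 fell in siACLY and 3 fell in siACO1. These were 20%, 30% and 30% called, near the shares of all genes called in either direction. In siSLC25A1 and siACO1 all calls were lower, where 9.27% and 19.3% of all genes were called lower. TUFM, the mitochondrial elongation factor Tu, fell in each of the 3 knockdowns, by 0.21, 0.15 and 0.26.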

How the data were processed

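The authors deposited 1 table of whole-number read counts per gene, not normalized, per the file headers and the values. Per the submitters' processing notes, CASAVA, FastQC, Trim Galore, STAR 2.7.0e and DESeq2 were used and GRCm39 and GRCh38 are named; the gene identifiers are human. The counting tool, annotation release and strand setting are not given in the sources used here. Genes kept by filterByExpr (16197) entered edgeR 4.0.16 (R 4.3.3) after TMM scaling, where glmQLFit with robust = TRUE took the 12 libraries with group as its term and 8 residual degrees of freedom. All adjusted p-values are from this two-sided F test with Benjamini-Hochberg adjustment. SE is the log2 fold change over the root of F. Exon lengths, overlaps and gene positions are from GENCODE 29 (GRCh38), promoter sequences from RefSeq. The script was tested on simulated counts, with changed genes drawn from all those kept, whatever their level. At log2 sizes of 1, 0.5, 0.3 and 0.2 it called 82%, 64%, 54% and 12% of them, and 0.0512% of unchanged genes. A gene that was not called may therefore still have changed by a small amount. Alternatives were DESeq2 1.42.0, other scalings, filters and thresholds, the compared groups alone, a replicate block, and leaving out each library. Values per library follow a rule: the 4 cytosolic and 3 mitochondrial called genes with the largest non-overlapping change per knockdown, the 3 largest between knockdowns, and a few pathway genes. SARS2, VARS2 and the other genes near 0 were not tested. Setting aside GARS1 and KARS1, and other settings for genes that are not synthetases, were chosen after seeing the data. Members, lists and rules were chosen with earlier results of these data known.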

Additional observations from a re-analysis of the deposited data

How the results depend on the processing

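Members' calls were recomputed under 21 other settings and class medians under 19. DESeq2 gave 7, 12, 20, 13, 19 and 16 members called against 6, 12, 20, 13, 21 and 16, in the order siSLC25A1, siACLY and siACO1 against siControl, siSLC25A1 against siACLY, siSLC25A1 against siACO1 and siACLY against siACO1. Asking for an absolute log2 fold change of 0.3 or more left 1, 2, 9, 3 and 12 members in the first 5, and an adjusted p under 0.01 left 7 in siACLY. Library totals in place of TMM moved the cytosolic and mitochondrial medians to 0.05 and 0.01 in siACLY, -0.31 and -0.03 in siACO1, -0.02 and -0.07 in siSLC25A1 against siACLY, and 0.38 and 0.06 in siSLC25A1 against siACO1. For all genes, that scaling shifted the median by at most 0.049 and took the share of calls that were higher from 47.9% to 59.5% in siACO1 and from 51.8% to 41% in siSLC25A1 against siACLY. The cause of these shifts was not tested. PHGDH was called lower in siSLC25A1 under 5 settings, among them DESeq2 and the replicate block, with adjusted p from 0.00342 to 0.0429.

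Leaving out 1 library gave 4 to 10, 7 to 14, 18 to 21, 9 to 15, 17 to 21 and 13 to 21 members called in the same order. The lowest siSLC25A1 against siACLY count was without the second siACLY library. The cytosolic medians ranged over -0.00 to 0.03, -0.01 to 0.02, -0.38 to -0.34, -0.01 to 0.05, 0.41 to 0.45 and 0.38 to 0.40, and the mitochondrial ones over -0.05 to -0.01, -0.05 to -0.00, -0.11 to -0.08, -0.05 to -0.00, 0.06 to 0.11 and 0.06 to 0.11. Over 19 settings, 13 of the 15 cytosolic and 3 of the 5 mitochondrial calls in siACO1 were kept throughout; those lost in some were CARS1, HARS1, FARS2 and MARS2. In siACLY 3 of 7 and 3 of 5 were kept, and in siSLC25A1 3 of 3 and 1 of 3. Calls lost in some settings were CARS1, EPRS1, KARS1, QARS1, HARS2 and RARS2 in siACLY, and IARS2 and YARS2 in siSLC25A1.

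Same-numbered libraries of different groups did not deviate together (correlations of -0.03 to 0.07 in 18 pairs, against -0.07 to 0.07 in 36 others, and 6 of 12 libraries closest to one of their own number), so the numbers were not taken to pair them. With the replicate block, 8, 13, 20, 14, 21 and 16 members were called. The promoter core with C at its N was in 37.5% of cytosolic, 0% of mitochondrial and 1.08% of all genes, and with N also at its later T in 43.8%, 28.6% and 17.6%. With 24159424 counts or more a library, counting noise was small for most members; IARS1, VARS1, SARS2 and VARS2 could not be assessed.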
